A study of Rattus norvegicus with 20 samples.

Results

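Choroid plexus epithelial genes were followed through hippocampal RNA of newborn Gunn rats. The 10 genes are Ttr, Kl, Folr1, Aqp1, Clic6, Kcnj13, Sostdc1, Tmem72, Cldn2 and Slc4a5, and each was found by its symbol among the 32883 genes of the count table. All 10 passed the filter on low counts, as did 15272 genes in all. The 20 libraries were poly(A) RNA-seq libraries of the hippocampus of Gunn rat pups at postnatal day 6, 5 in each of 4 groups. The Gunn rat carries a loss of the liver enzyme that conjugates bilirubin, so that homozygous pups (jj) are jaundiced and heterozygous controls are not (Jj in the sample labels, Nj in the series text and here). Untreated Nj and untreated jj pups received no light. Light-treated Nj and light-treated jj pups received intermittent LED phototherapy from day 4 to day 6, for 12 h in all, with 3 h on and 3 h off. All groups share the Gunn strain, and no group lacks the mutant allele.

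The choroid plexus is a folded sheet of secretory epithelium over a vascular core that hangs into the brain ventricles and makes cerebrospinal fluid. Its epithelial cells move ions, bicarbonate and water across their apical face, are joined by leaky tight junctions, and export carrier proteins into the fluid. In the lateral ventricle the plexus lies along the fimbria, next to the hippocampus, and it is not part of the hippocampus itself. In RNA of a whole dissected piece, fewer cells of a type and less RNA per cell cannot be told apart.

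Library totals ran from 16882652 to 27112749 counts. Of 10 listed markers of the hippocampus, 8 passed the filter on low counts. Some were well present in every library: Prox1, a marker of dentate granule cells, ran from 89.3 to 135 CPM. Neurod6, of pyramidal neurons, ran from 218 to 362 CPM, and Nrgn, a calmodulin-binding protein of forebrain neurons, from 597 to 877 CPM. Fibcd1, of the same list, ran only from 0 to 2.47 CPM. CPM are counts scaled to a common library size after TMM normalisation. Libraries stood apart on the 10 genes themselves. Ordered by the mean standardised log2 CPM of the 10 genes, the 20 libraries fell into 13 lower and 7 upper ones. The gap between these sets was 0.77 standard deviations, against 0.29 for the next widest gap between neighbours. The upper libraries were untreated Nj replicate 3, untreated jj replicate 3, light-treated Nj replicates 2 and 5, and light-treated jj replicates 2, 4 and 5. The sets come from the data and are not groups of the study. A number at the start of the sample titles follows the groups (13, 14 and 15 in untreated Nj, 17 in untreated jj, 18 in both light-treated groups), so that it cannot be told apart from the light, nor from the genotype among untreated pups. Its meaning is not given in the sources used here. The 10 libraries with the number 18 split into 5 lower and 5 upper ones.

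The RefSeq promoter table (build GRCr8, windows of 300 bases across each gene's start) held 6 of the 10 genes: Aqp1, Kcnj13, Kl, Slc4a5, Tmem72 and Ttr. Whether these sequences bear on the levels was not tested. Both strands were searched for 3 motifs that do not overlap one another. TAATCC, the core that Otx-type homeodomain factors bind, was in 0 of the 6 windows and in 7.17% of all 33469 windows. TGTTTAC, a forkhead core, was in 0 of the 6 and in 3.78% of all. TATAAA, the TATA box, was in 2 of the 6 and in 14.2% of all: from 30 to 25 bases before the start of Aqp1 and from 46 to 41 bases before that of Kcnj13. The windows of Aqp1 (chr4:85812534-85812833, plus strand) and Kcnj13 (chr9:95518937-95519236, minus strand) are shown with TATAAA in capitals, and that of Kl (chr12:5325753-5326052, plus strand) as one with none of the motifs, to set side by side promoters of genes whose levels are described next. Their GC content was 64.0%, 46.3% and 75.0%, with a median of 51.7% over all windows. A match describes the sequence only, and letters missing from a window say nothing about the factor.
Aqp1: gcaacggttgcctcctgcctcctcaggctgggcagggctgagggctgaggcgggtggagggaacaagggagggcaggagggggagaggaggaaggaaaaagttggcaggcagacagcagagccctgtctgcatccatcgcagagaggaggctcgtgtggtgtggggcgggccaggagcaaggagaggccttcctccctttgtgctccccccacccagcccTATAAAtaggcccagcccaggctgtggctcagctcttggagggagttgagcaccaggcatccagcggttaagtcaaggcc
Kcnj13: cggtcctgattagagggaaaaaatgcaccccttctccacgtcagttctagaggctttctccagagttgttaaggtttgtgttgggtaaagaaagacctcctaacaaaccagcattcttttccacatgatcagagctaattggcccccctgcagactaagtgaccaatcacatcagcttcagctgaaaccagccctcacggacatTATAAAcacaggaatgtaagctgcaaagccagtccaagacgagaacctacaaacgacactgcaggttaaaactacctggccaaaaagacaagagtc
Kl: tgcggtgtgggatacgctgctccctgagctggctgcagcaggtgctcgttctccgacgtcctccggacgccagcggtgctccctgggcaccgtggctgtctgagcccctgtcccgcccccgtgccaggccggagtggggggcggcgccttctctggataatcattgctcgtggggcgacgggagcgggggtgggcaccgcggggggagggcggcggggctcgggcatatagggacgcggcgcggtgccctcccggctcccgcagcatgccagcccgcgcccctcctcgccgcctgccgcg

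Among the secreted and carrier genes, Ttr encodes transthyretin, which carries thyroxine and retinol-binding protein and is the hallmark transcript of the choroid plexus. Ttr stood at 761, 57.2, 4109, 419 and 3.57 CPM in untreated Nj replicates 1 to 5 and at 21.8, 159, 9657, 51.4 and 6.73 CPM in untreated jj replicates 1 to 5. With light, Ttr stood at 19.7, 3693, 18.9, 426 and 3948 CPM in Nj and at 59.1, 7663, 247, 5387 and 6555 CPM in jj. In every group at least 1 upper library stood beside at least 2 lower ones, and all groups overlapped. The 20 levels spanned 2709-fold, from 83 to 177602 counts. As a share of all counts, Ttr ran from 0.000353% (95% Wilson interval 0.000285 to 0.000437) in untreated Nj replicate 5 to 1.01% (1.00 to 1.01) in untreated jj replicate 3. These intervals cover counting error only.

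Kl encodes Klotho, a membrane protein that serves as co-receptor for FGF23 and is shed into the fluid. Kl stood at 9.14, 1.02, 50.5, 3.99 and 0.515 CPM in untreated Nj and at 0.794, 1.65, 94.6, 1.26 and 0.276 CPM in untreated jj. The light-treated Nj pups had 0.728, 39.1, 0.751, 4.00 and 44.0 CPM and the light-treated jj pups 1.10, 78.0, 3.83, 55.5 and 74.8 CPM. The libraries high in Ttr were the libraries high in Kl, and the range was 342-fold.

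Sostdc1 encodes a secreted antagonist of BMP and Wnt signalling. Its level was 9.10, 0.861, 43.4, 3.57 and 0.129 CPM in untreated Nj and 0.794, 2.06, 64.4, 0.263 and 0.138 CPM in untreated jj. After light, Sostdc1 was at 0.572, 38.8, 1.15, 5.39 and 39.0 CPM in Nj and at 0.822, 69.6, 2.65, 50.3 and 61.6 CPM in jj. The lowest library held 3 counts, which is the floor used for a fold, so no range is given as a fold.

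Folr1 encodes folate receptor alpha, which takes up folate at the epithelium for export into cerebrospinal fluid. Folr1 stood at 12.8, 7.48, 44.9, 9.39 and 4.68 CPM in untreated Nj and at 5.11, 3.53, 79.1, 4.69 and 5.16 CPM in untreated jj. Levels in light-treated libraries were 3.02, 31.8, 4.33, 5.84 and 40.5 CPM for Nj and 5.76, 76.0, 8.72, 52.3 and 66.6 CPM for jj. Its range of 26.2-fold was the narrowest of the 8 genes for which a fold could be given, and its 13 lower libraries lay between 3.02 and 12.8 CPM.

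Of the genes that move water and ions, Aqp1 encodes the water channel of the apical membrane. It measured 13.4, 3.48, 64.5, 10.1 and 2.66 CPM in untreated Nj and 4.42, 6.48, 126, 3.32 and 2.86 CPM in untreated jj. With light, Aqp1 stood at 2.91, 47.2, 2.43, 11.5 and 52.4 CPM in Nj and at 2.66, 100.2, 5.15, 64.3 and 85.8 CPM in jj. In each group the same libraries were high as for Ttr, and the range was 51.7-fold.

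Kcnj13 encodes Kir7.1, an inwardly rectifying potassium channel. Its level was 9.32, 0.939, 27.8, 5.61 and 3.44 CPM in untreated Nj and 6.01, 5.42, 32.4, 5.48 and 1.43 CPM in untreated jj. The light-treated Nj pups had 1.77, 24.8, 0.663, 7.74 and 27.2 CPM and the light-treated jj pups 2.04, 42.9, 2.29, 25.2 and 32.0 CPM. Among the lower libraries its order differed from that of Ttr: untreated Nj replicate 5, lowest for Ttr, held more Kcnj13 than untreated Nj replicate 2, and untreated jj replicates 1 and 4 held about as much as replicate 2.

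Clic6 belongs to the chloride intracellular channel family. Clic6 measured 14.3, 5.13, 83.1, 12.3 and 1.76 CPM in untreated Nj and 4.17, 4.65, 138, 2.48 and 1.11 CPM in untreated jj. After light, Clic6 was at 2.55, 57.7, 2.79, 11.5 and 68.7 CPM in Nj and at 3.41, 127, 8.31, 90.0 and 96.7 CPM in jj. Its range was 125-fold.

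Slc4a5 encodes an electrogenic sodium bicarbonate cotransporter. Slc4a5 stood at 4.92, 1.37, 25.4, 3.62 and 0.344 CPM in untreated Nj and at 0.745, 2.30, 65.4, 1.21 and 0.553 CPM in untreated jj. Levels in light-treated libraries were 0.988, 20.9, 0.398, 4.25 and 24.8 CPM for Nj and 1.18, 43.4, 1.27, 29.8 and 40.8 CPM for jj. The highest library for this gene was untreated jj replicate 3, and the range was 190.4-fold.

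Cldn2 encodes the claudin that forms cation and water pores in leaky tight junctions. It stood at 9.55, 1.37, 49.4, 4.51 and 1.42 CPM in untreated Nj and at 2.63, 3.18, 67.5, 2.95 and 0.783 CPM in untreated jj. With light, Cldn2 stood at 0.624, 37.5, 1.06, 4.00 and 42.7 CPM in Nj and at 1.61, 68.9, 2.55, 42.3 and 53.8 CPM in jj. Its range was 110.4-fold.

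Tmem72 encodes a multi-pass membrane protein. Its level was 8.39, 1.06, 43.5, 3.41 and 0.0430 CPM in untreated Nj and 0.347, 1.89, 73.2, 0.474 and 0.184 CPM in untreated jj. The light-treated Nj pups had 0.624, 35.2, 0.398, 4.64 and 37.4 CPM and the light-treated jj pups 0.862, 73.2, 3.01, 42.9 and 59.7 CPM. The lowest library, untreated Nj replicate 5, held 1 count, under the floor of 3 counts, so no fold is given for its range.

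For all 10 genes every one of the 7 upper libraries lay above every one of the 13 lower libraries, and all 4 groups held libraries of both sets. The distance between the sets differed from gene to gene. The highest lower library and the lowest upper library were 761 and 3693 CPM for Ttr, 9.14 and 39.1 CPM for Kl, and 12.8 and 31.8 CPM for Folr1. The sets were made from these levels, so that this is a description.

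**Figure D1:**
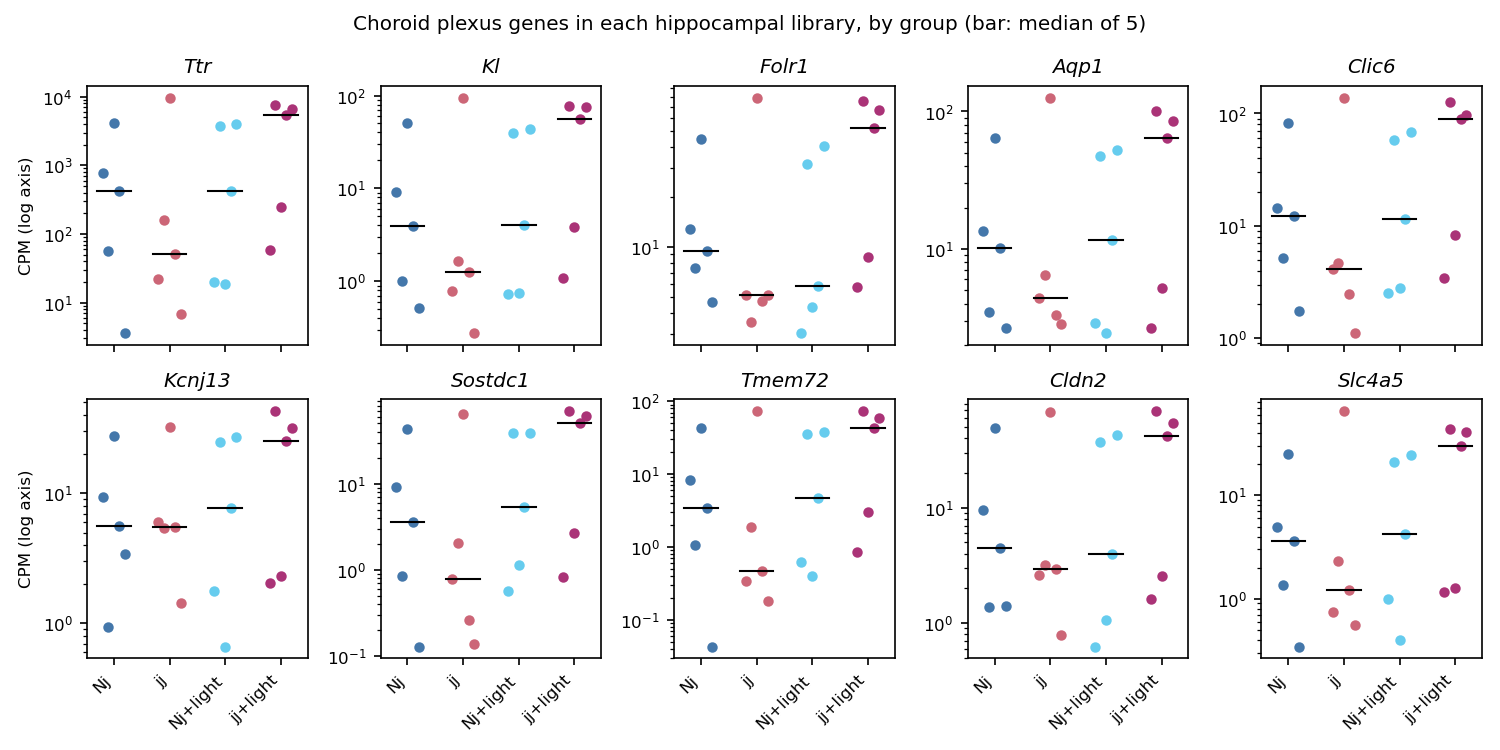
CPM (log axis) of the 10 genes in each library, 1 panel per gene, with a point per library and a bar at the median of the 5 libraries of each group. In every panel each group holds libraries on both sides of a wide gap, and all 4 groups overlap.

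**Figure D2:**
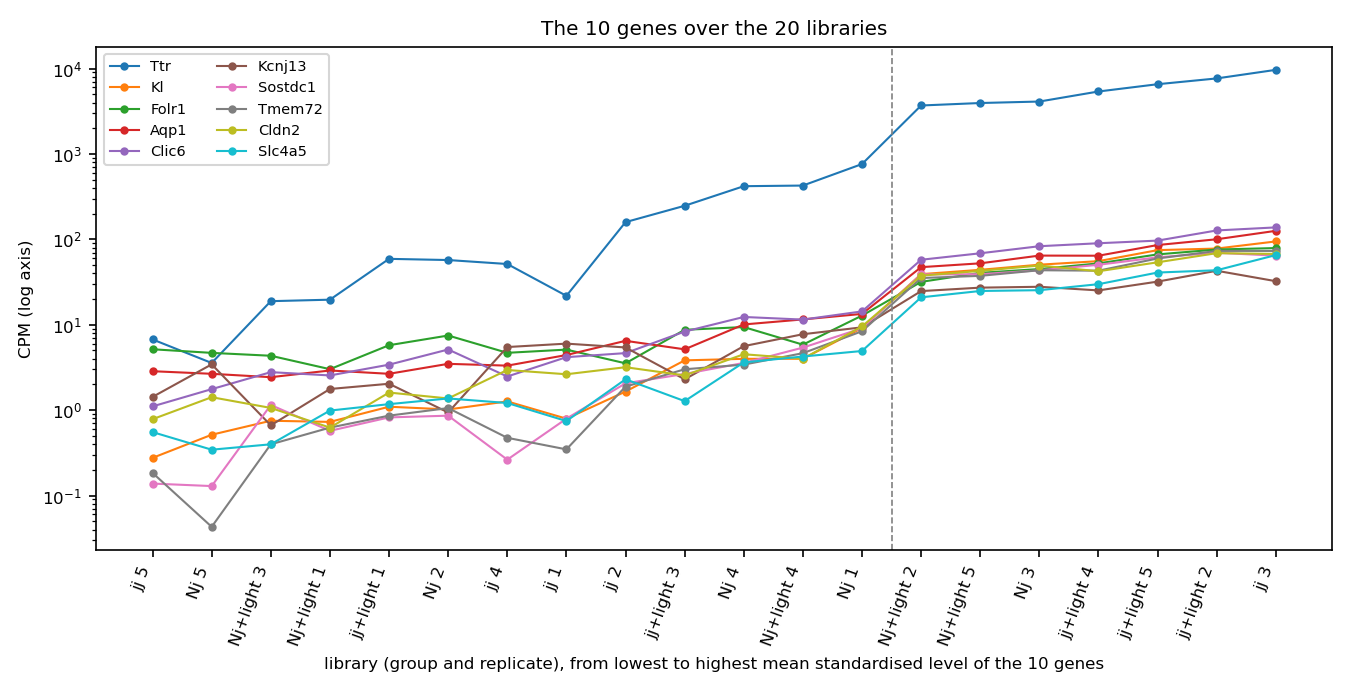
CPM (log axis) of the 10 genes in the 20 libraries, ordered along the x axis by the mean standardised level of the 10 genes, with a line per gene and a dashed line between the 13 lower and the 7 upper libraries. The lines rise together at the dashed line, while at the left end Folr1 and Kcnj13 run less closely with Ttr.

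The spread between pups of 1 group was large beside that of other genes. The within-group SD of log2 CPM, pooled over the 4 groups, was 3.75 for Ttr, rank 5 from the highest of 15272 genes, where the median gene had 0.13. Tmem72 followed with 3.05, then Sostdc1 with 2.96 and Kl with 2.82. Slc4a5 had 2.52, Cldn2 2.46, Clic6 2.34, Aqp1 2.16 and Kcnj13 1.96. Folr1, the least variable of the 10, had 1.65 and rank 60.

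Whether genotype or light moved these genes was asked in 4 comparisons and their interaction, which share samples: each group serves in more than 1 comparison. No gene of the 10 passed the test between untreated jj and untreated Nj pups. In edgeR (quasi-likelihood F-test, p-values adjusted by Benjamini-Hochberg), 0 of 10 had an adjusted p under 0.05, against 0% of the 15272 genes tested. An unadjusted p under 0.05 was found for 0 of 10, against 6.36% of all genes tested. DESeq2 also called 0, with 0 at an unadjusted p under 0.05, against 4.68% of all genes in its fit. The share of all genes called was counted in this edgeR fit only, here and in all later comparisons and alternatives. Mean Ttr was 1070.1 ± 1726 CPM (SD, n = 5) in untreated Nj and 1979 ± 4292 CPM (SD, n = 5) in untreated jj, so that the SD exceeded the mean in both. The fitted log2 fold change of Ttr was 0.89 with an SE of 1.95 and a 95% interval from -3.24 to 5.02. The 10 log2 fold changes ran from 0.11 for Kcnj13 to 0.98 for Slc4a5, with a median of 0.40 where the median of all genes was 0.00. All 10 genes had overlapping groups. Overlap was not counted for all genes, here or in the comparisons below, so it does not set these 10 apart.

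Every sign in this comparison changed with 1 library left out. Without untreated jj replicate 3, the log2 fold change of Ttr was -4.17 (edgeR adjusted p = 0.998), and all 10 genes were lower in jj than in Nj, from -1.04 for Kcnj13 to that value of Ttr, with 0 of 10 called. Without untreated Nj replicate 3, Ttr stood at 2.67 and Kl at 2.40, both higher in jj, again with 0 of 10 called. In these fits an unadjusted p under 0.05 was found for 0 of 10, against 4.64% and 5.09% of all genes. The sign of Cldn2 and of Kcnj13 changed with any of 4 of the 10 libraries left out in turn, and that of Sostdc1 with any of 3. With only the untreated Nj libraries of title number 15, 6 of the 10 signs changed.

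With light in Nj pups, none of the 10 genes passed either. In edgeR 0 of 10 were called where 4.00% of all genes tested were. An unadjusted p under 0.05 was found for 0 of 10, against 18.1% of all genes tested. DESeq2 gave 0 by both measures, where 12.8% of all genes had an unadjusted p under 0.05. Mean Ttr was 1621 ± 2017 CPM (SD, n = 5) in light-treated Nj, with a log2 fold change of 0.60 against untreated Nj (SE 1.94, 95% interval -3.51 to 4.71). The median of the 10 was 0.43, from 0.12 for Folr1 to 0.60 for Ttr, and the median of all genes was 0.00. Groups overlapped for all 10 genes. Leaving out light-treated Nj replicate 5 turned 9 of the 10 signs, all but that of Sostdc1, and Folr1 then stood at -0.48. Without untreated Nj replicate 3, Ttr stood at 2.40.

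Light in jj pups was fitted with higher levels of all 10 genes, and none of these differences passed. Here 3 of 5 light-treated and 1 of 5 untreated libraries were upper libraries. In edgeR 0 of 10 genes were called, against 0.164% of all genes tested. An unadjusted p under 0.05 was found for 0 of 10, against 13% of all genes tested. DESeq2 gave 0 by both measures, where 9.06% of all genes had an unadjusted p under 0.05. Mean Ttr was 3982 ± 3588 CPM (SD, n = 5) in light-treated jj, and its log2 fold change against untreated jj was 1.01 (SE 1.95, 95% interval -3.13 to 5.15). The median of the 10 was 1.11, from 0.74 for Slc4a5 to 1.46 for Sostdc1, and all 10 genes had overlapping groups. Without untreated jj replicate 3, the log2 fold change was 6.08 for Ttr (edgeR adjusted p = 0.219) and 3.18 for Folr1 (edgeR adjusted p = 0.174, the lowest of the 10 over the alternatives tried, which ran up to 0.955). Of the 10, 9 then had an unadjusted p under 0.05, all but Kcnj13, against 14.7% of the 15352 genes tested in that fit, and 0 were called. The library left out was the only upper one of untreated jj. The 10 genes covary, so that the 9 are not separate observations.

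Genes of the meninges, the membranes over the brain, were fitted lower in light-treated jj than in untreated jj. Of 8 meningeal genes tested, 0 were called in edgeR, against 0.164% of all genes tested, and 5 had an unadjusted p under 0.05, against 13.0% of all genes, with a median log2 fold change of -0.63. The 5 were the collagen genes Col1a1 (-0.71) and Col3a1 (-0.55), the transporter genes Slc6a13 (-1.07) and Slc22a6 (-0.78), and Aldh1a2 (-0.89), which makes retinoic acid. The summed level of the 8 meningeal genes ran from 331 to 545 CPM in untreated Nj, from 302 to 738 in untreated jj, from 346 to 574 in light-treated Nj and from 292 to 555 in light-treated jj. The 9 ependymal genes tested had a median of 0.24 in the same comparison, 0 called and 1 with an unadjusted p under 0.05, and their summed levels ran from 121 to 146, 97.1 to 176, 88.5 to 159 and 107 to 207 CPM in the same order of groups. Of the defining markers, Ogn of the meninges had 0 counts in 18 libraries and Sntn of the ependyma in 14, and both were under the filter. The other comparisons were, in order, untreated jj against Nj, light in Nj, light-treated jj against Nj and the interaction. There the meningeal median was 0.33, -0.23, -0.21 and -0.46, and the ependymal median -0.16, -0.22, 0.33 and 0.45. In edgeR 0 were called, against 0%, 4.00%, 0% and 0% of all genes. An unadjusted p under 0.05 was found for 1, 1, 0 and 1 meningeal and 0, 1, 1 and 3 ependymal genes. Of all genes, 6.36%, 18.1%, 6.62% and 3.41% had one. The part of these tissues in the differences was not tested.

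Between light-treated jj and light-treated Nj pups, which share the title number 18, 0 of 10 genes were called in edgeR against 0% of all genes tested. An unadjusted p under 0.05 was found for 0 of 10, against 6.62% of all genes tested. DESeq2 gave 0 by both measures, where 4.82% of all genes had an unadjusted p under 0.05. The log2 fold change of Ttr was 1.30 (SE 1.97, 95% interval -2.87 to 5.46), and the 10 ran from 0.74 for Kcnj13 to 1.30 for Ttr with a median of 1.18. All groups overlapped. Leaving out any 1 library kept Ttr between 0.92 and 1.95. The interaction, the difference of the light effects between jj and Nj, had 0 of 10 called in edgeR against 0% of all genes tested. An unadjusted p under 0.05 was found for 0 of 10, against 3.41% of all genes tested. DESeq2 gave 0 by both measures, where 2.7% of all genes had an unadjusted p under 0.05. The interaction was 0.41 for Ttr (SE 2.74), with a median of 0.71 over the 10 genes. Without untreated jj replicate 3 it was 5.48 for Ttr (edgeR adjusted p = 0.729), with 5 of 10 genes at an unadjusted p under 0.05, against 6.74% of the genes in that fit, and 0 called. Here too the genes covary and are not separate observations.

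**Figure D3:**
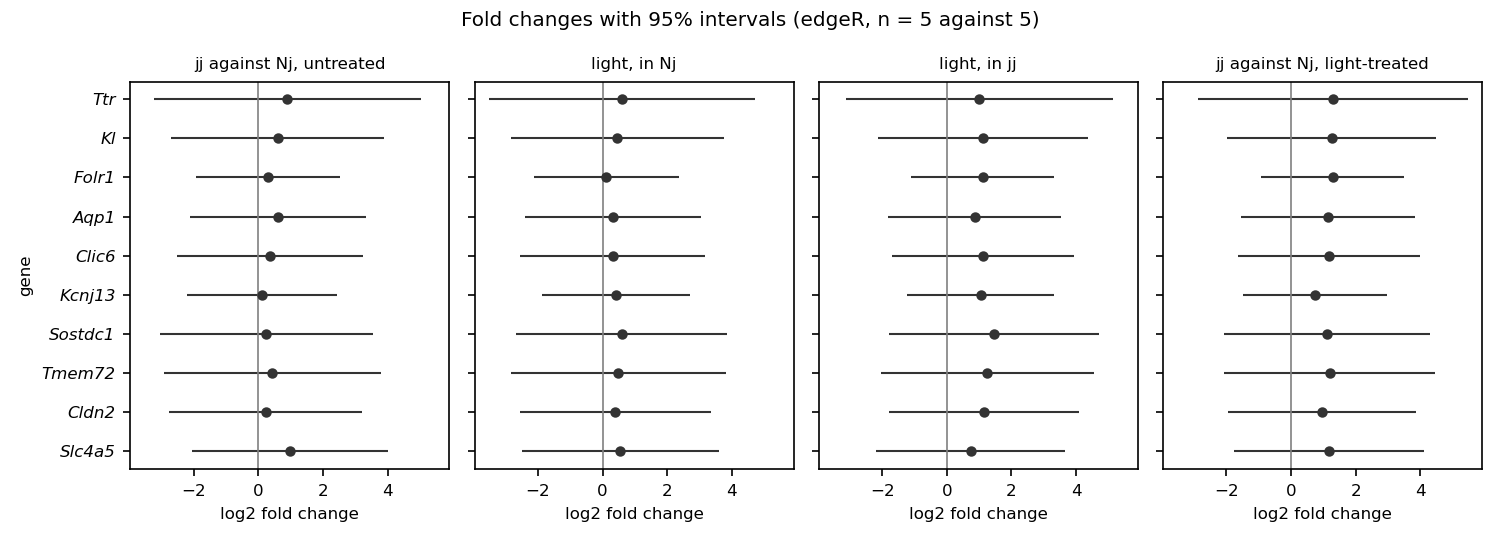
Log2 fold changes (x axis) of the 10 genes (y axis) in the 4 comparisons, with 95% intervals from edgeR over 5 against 5 libraries. All 40 intervals cross 0, and the intervals of Ttr are the widest.

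The 10 genes went up and down together from library to library. Because the libraries fell into 2 sets, no pair was tested over all 20, and pairs were compared within the 13 lower and within the 7 upper libraries, where the number 18 and the groups were too thinly filled for values of their own. Within the 7 upper libraries, all 45 pairs had a Spearman rho of at least 0.86, with a median of 0.96, and all 45 passed an exact two-sided permutation test with Benjamini-Hochberg adjustment over the pairs (adjusted p under 0.05). The smallest exact p that 7 libraries allow for rho, 0.000397, was reached. Pearson's r had a median of 0.95, and 43 of 45 pairs passed. Without the 2 libraries farthest from the median of the first gene the median r was 0.94, over 5 libraries. The upper libraries also split by genotype: all Nj ones had a lower mean standardised level (0.97 to 1.12) than all jj ones (1.15 to 1.44). The permutations did not take account of this split. On deviations from group means the median rho was 0.96. Untreated Nj and untreated jj held 1 library each, which cannot deviate from its own mean, and the 2 light-treated Nj libraries mirror each other. Few values were left free to vary, so this rho cannot tell whether the pairs hold within a genotype.

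Within the 13 lower libraries the pairs ran less evenly. All 45 rhos were positive, from 0.38 to 0.97 with a median of 0.81, and 39 of 45 passed a permutation test with 100000 resamples and the same adjustment. Pearson's r had a median of 0.84, from 0.28 to 0.98, and again 39 of 45 passed. Without the 2 farthest libraries the median r was 0.76, and 1 of the 45, Folr1 with Kcnj13, stood at -0.11. Over the 8 untreated lower libraries the median rho was 0.83. On deviations from group means, over all 13, it was 0.87. The library sets were made from the same genes, so that the values describe covariation within a narrowed range.

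Ttr and Kl formed the tightest lower pair, with rho 0.97 (p = 1e-05, the smallest that 100000 resamples can give, adjusted p = 9e-05; permutation test, n = 13) and r 0.95. Tmem72 with Ttr had rho 0.97, Slc4a5 with Ttr and with Tmem72 0.95, and Clic6 with Sostdc1 0.94. The 6 pairs that did not pass all held Folr1 or Kcnj13: Folr1 with Aqp1, Kcnj13 and Cldn2, and Kcnj13 with Clic6, Sostdc1 and Tmem72. Folr1 with Kcnj13 was the loosest pair, with rho 0.38 (adjusted p = 0.202; permutation test, n = 13). Kcnj13 ran closest with Cldn2, the channel and the claudin, at rho 0.88 (adjusted p = 0.000415; permutation test, n = 13). Folr1 had a median rho of 0.62 with its 9 partners and Kcnj13 0.59, against 0.91 for Tmem72 and 0.90 for Ttr.

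**Figure D4:**
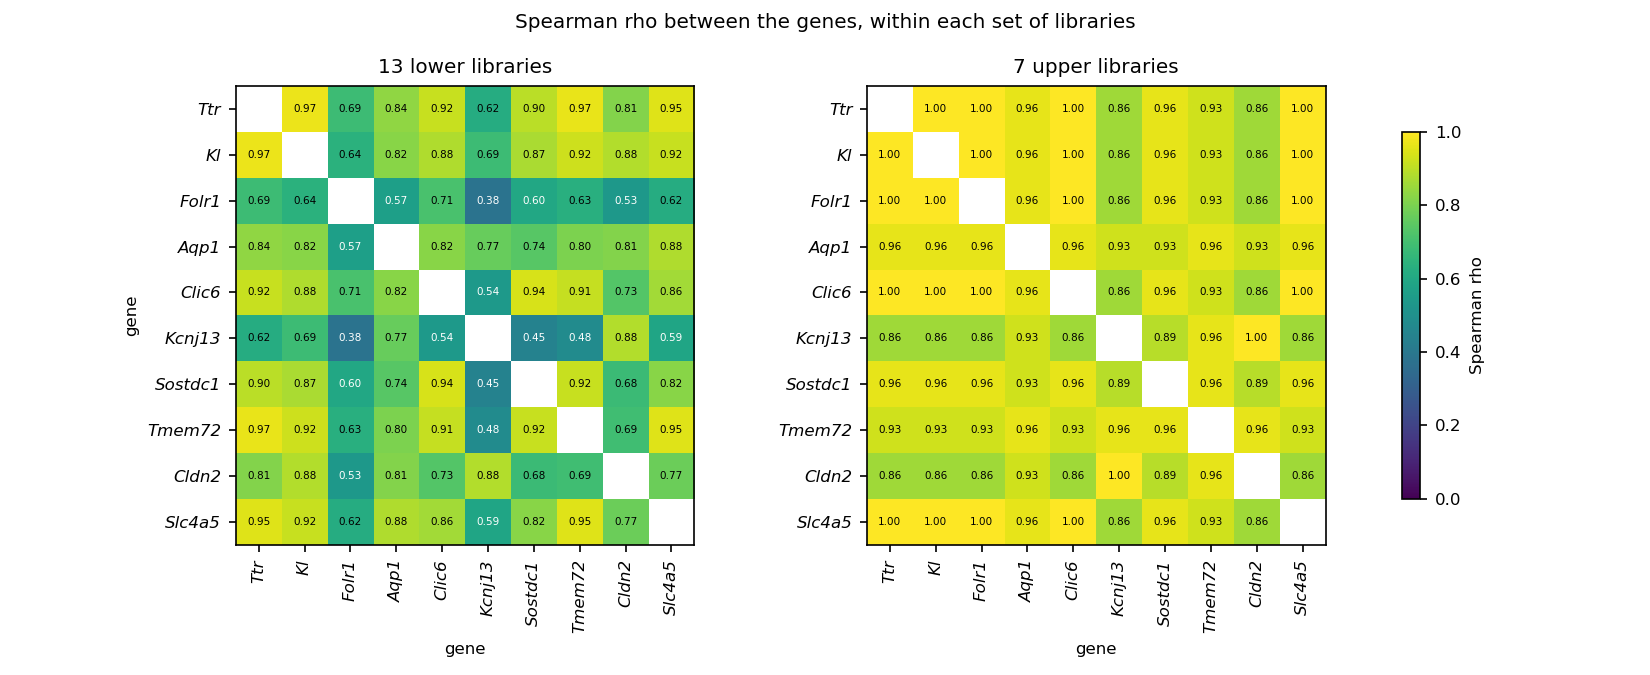
Spearman rho of log2 CPM for the 45 pairs of the 10 genes (both axes list the genes), in the 13 lower libraries on the left and the 7 upper libraries on the right, with the colour scale from 0 to 1. The rows of Folr1 and Kcnj13 hold the lowest values on the left, down to 0.38, while no pair on the right is under 0.86.

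Ratios between the genes were steady where the plexus genes were high. In the 7 upper libraries Kl stood at 10.8 ± 0.854 CPM per 1000 CPM of Ttr (SD, n = 7), a coefficient of variation of 7.90%, and Slc4a5 had one of 7.33%. Aqp1 followed with 8.73%, Folr1 with 9.95%, Tmem72 with 11.2%, Clic6 with 12.0%, Sostdc1 with 14.05% and Cldn2 with 19.2%. The largest was 24.0% for Kcnj13, whose ratio ran from 3.35 to 6.89 CPM per 1000 CPM of Ttr. In the 13 lower libraries the same ratio ran from 9.28 to 964 for Kcnj13 and from 13.7 to 1313 for Folr1, against 8.14 to 31.8 for Tmem72. For Aqp1 it ran from 17.6 to 747, for Clic6 from 18.8 to 494 and for Cldn2 from 9.37 to 397. The highest ratios of Kcnj13, Folr1, Aqp1, Clic6 and Cldn2 all came from the same library, untreated Nj replicate 5. It held only 83 counts of Ttr, and 1 count of Tmem72. All 9 other genes had a higher median ratio to Ttr in the lower than in the upper libraries, which were split on these levels. The medians went from 9.92 to 97.4 for Folr1, from 13.1 to 60.9 for Aqp1, from 16.6 to 57.7 for Clic6, from 5.59 to 34.5 for Kcnj13 and from 8.99 to 27.2 for Cldn2. For Slc4a5 they went from 6.18 to 21.1, for Kl from 10.6 to 18.5, for Sostdc1 from 9.40 to 13.9 and for Tmem72 from 9.46 to 12.2. These ratios carry no length correction and say nothing of which gene is the more abundant per transcript.

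Lists of neighbouring cell types were set against the mean standardised level of the 10 genes, within each set of libraries, with 6 relations per set and permutation tests adjusted over them (exact for n = 7). The mean of the other 9 genes followed Ttr with rho 0.94 in the lower (adjusted p = 6e-05) and 1.00 in the upper libraries (exact adjusted p = 0.00238). Ependymal genes gave rho 0.29 in the lower and 0.64 in the upper libraries, and meningeal genes 0.45 and 0.14, none of which passed. Endothelial genes had rho 0.59 (adjusted p = 0.114, permutation test) and -0.21, and red blood cell genes 0.53 and 0.32. Hippocampal neuron genes had rho -0.20 in the lower libraries. In the upper libraries they had -0.89 (exact adjusted p = 0.0369) with r -0.82 (exact adjusted p = 0.0542), and leaving out 1 of the 7 libraries in turn gave rho from -1 to -0.77. It then passed only without light-treated jj replicate 2, and the exact adjusted p was between 0.05 and 0.308 with each of the other 6 left out. These permutations, too, did not take account of the split of the upper libraries by genotype.

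Each of the 10 genes was also set against the lists, with 50 relations per set of libraries, and no rho passed in either set. In the lower libraries Kcnj13 had rho 0.77 with the meningeal list (adjusted p = 0.147) and r 0.83 (adjusted p = 0.0345), by permutation test with n = 13, and r was 0.87 without the 2 farthest libraries. These permutations did not take account of the groups, and no value on deviations from group means was made for the lists. The meningeal mean was 0.87, 1.37, 0.94 and -1.27 in the lower untreated jj libraries and -1.15 to 0.44 in the untreated Nj ones. In the lower light-treated libraries it was -0.50, -0.55 and 1.12 for Nj and -0.67 and -0.88 for jj. Cldn2 had rho 0.70 with the same list (adjusted p = 0.155, permutation test, n = 13). Folr1 had rho -0.19 with the meningeal list and 0.69 with the ependymal list (adjusted p = 0.155, permutation test, n = 13), where Kcnj13 had -0.011. For Tmem72 these values were 0.29 and 0.16. With the endothelial list Kcnj13, Cldn2 and Aqp1 had rho 0.64, 0.69 and 0.63 (adjusted p = 0.209, 0.155 and 0.210, permutation test, n = 13). In the 7 upper libraries Kcnj13 had rho -0.21 with the meningeal and 0.68 with the ependymal list, and Folr1 had 0.14 and 0.64. There the r of Kcnj13 with the meningeal list was -0.65 (adjusted p = 0.270, exact permutation test), the opposite sign to the lower libraries. The difference between the genes was not tested.

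**Figure D5:**
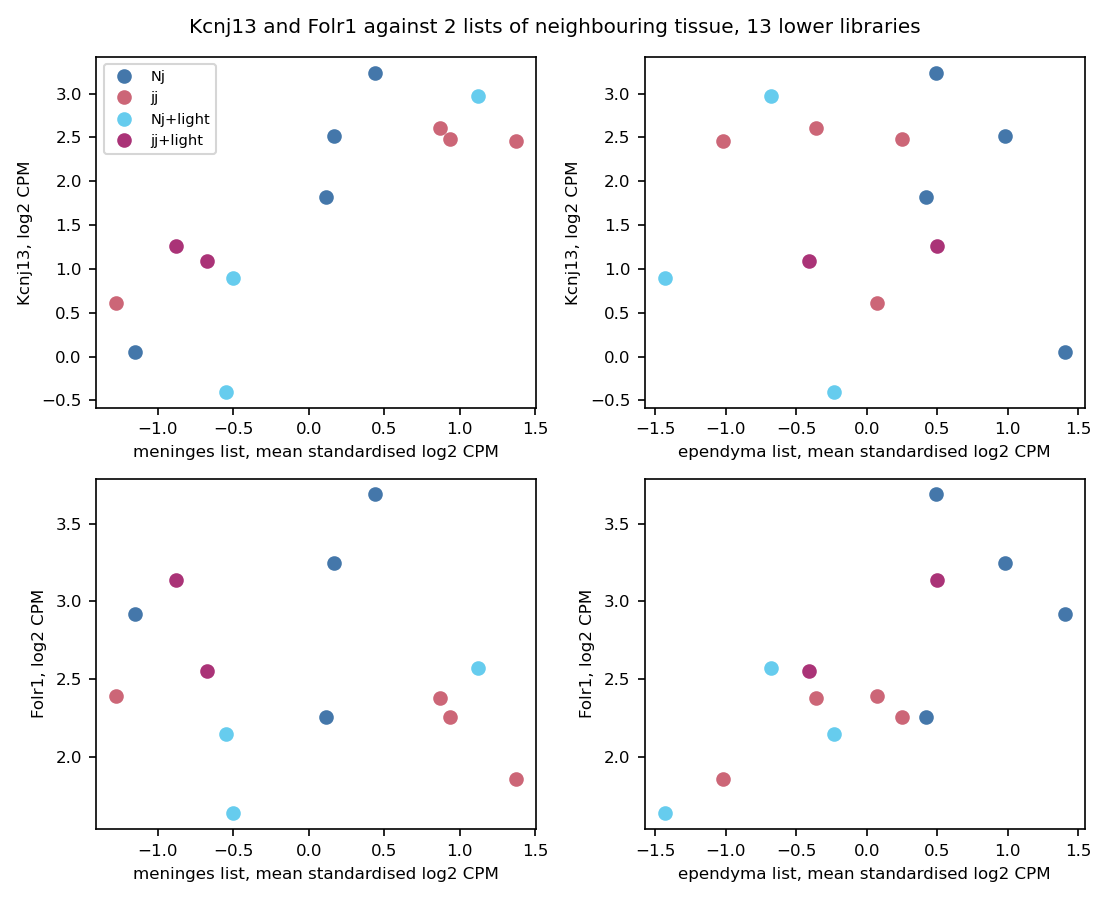
Log2 CPM of Kcnj13 (top) and Folr1 (bottom) against the mean standardised log2 CPM of 8 meningeal genes (left) and 9 ependymal genes (right), a point per library for the 13 lower libraries, coloured by group. Kcnj13 rises with the meningeal list at rho 0.77 and Folr1 with the ependymal list at rho 0.69, while the crossed panels show rho -0.19 for Folr1 and -0.011 for Kcnj13.

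Other choroid plexus genes came from a fixed list of 39, of which 38 were in the table and 37 were tested. Otx2, a homeodomain factor of the plexus, had 7 counts in 1 library and 0 in the other 19 and was under the filter, and Foxj1 was not analysed here. None of the 37 was called between untreated jj and Nj, for light in jj, between light-treated jj and Nj, or for the interaction, with 0, 2, 0 and 0 at an unadjusted p under 0.05 in edgeR, against 6.36%, 13.0%, 6.62% and 3.41% of all genes tested. For light in Nj 2 of the 37 were called, both higher, against 4.00% of all genes tested, and 3 had an unadjusted p under 0.05, against 18.1% of all genes. These were Slc4a10, a sodium bicarbonate transporter, with a log2 fold change of 0.23 (SE 0.05, edgeR adjusted p = 0.0222), and Atp1b1, a subunit of the sodium pump, with 0.21 (SE 0.05, edgeR adjusted p = 0.0308). Both are also expressed by neurons. The median log2 fold change of the 37 was 0.24 between untreated jj and Nj, 0.094 for light in Nj, 0.38 for light in jj, 0.58 between light-treated jj and Nj, and 0.26 for the interaction, where the median of all genes was 0.00 each time.

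Likeness to the 10 genes was described by Spearman's rho with their mean standardised level over the 20 libraries, which mixes the 2 sets and depends on the gap between them. Of the 37 genes 11 had a rho of at least 0.9, which is 29.7%, against 0.505% of the 15262 genes that are not among the 10. The 15262 include the 37. The list was chosen with earlier results of these data known, so these shares are a description. By role the share was 6 of 16 ion and solute transporters, 2 of 8 secreted proteins, 2 of 5 receptors and surface enzymes, 0 of 3 transcription factors and 1 of 5 junction genes and keratins. Abundant transporters were less alike: rho was -0.07 for Atp1b1 and 0.39 for Slc4a10. Atp1b1 ran only from 1030.3 to 1424 CPM over the 20 libraries.

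Secreted proteins were nearer. The growth factor gene Igf2 had rho 0.77 and ran from 95.7 to 529 CPM, and Igfbp2, which binds it, had rho 0.90 and ran from 109 to 454 CPM. Enpp2, or autotaxin, which makes lysophosphatidic acid, had rho 0.97 and ran from 26.5 to 516 CPM. Of the surface genes, the serotonin receptor Htr2c had rho 0.79, the angiotensin-converting enzyme Ace 0.95 and the leptin receptor Lepr 0.47. The transcription factor genes Msx1, Lmx1a and Gmnc had rho 0.88, 0.82 and 0.78, and the epithelial genes Spint2, Krt8 and Cldn1 had 0.88, 0.93 and 0.84. Within the 13 lower libraries the median rho of the 37 was 0.51 and within the 7 upper ones 0.86.

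The 10 genes outside the set with the highest rho were Enpp2, Frem1, Mfrp, Prr32, Trpv4, Clu, Ocln, Abca4, Igsf1 and Steap1, from 0.97 down to 0.96 over 20 libraries, and 4 of these, Enpp2, Trpv4, Abca4 and Steap1, were on the list of 39. Trpv4, an osmosensitive cation channel, ran from 0.184 to 12.2 CPM, with rho 0.92 in the lower and 0.96 in the upper libraries. Mfrp, a frizzled-related membrane protein, ran from 0.184 to 138 CPM, with rho 0.91 and 1.00. Clu, the secreted chaperone clusterin, which astrocytes also make, ran from 149.6 to 686 CPM, with rho 0.88 and 0.96. Ocln, the tight junction protein occludin, ran from 9.86 to 22.3 CPM, with rho 0.84 and 0.82. At the other end stood Apba2, Rph3a, Enc1, Kif3b and Dync1li1, with rho from -0.81 to -0.79, which changed little in level: Apba2, a synaptic adaptor gene, ran from 433 to 517 CPM.

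The liver also makes transthyretin, and its other products were set beside Ttr. Alb and Apoa1 were at 0 in 2 libraries and reached at most 9 and 7 counts, Fgb was at 0 in 10 libraries and Serpina1 in 15, with at most 4 and 3 counts, and all 4 were under the filter. Tf, transferrin, which oligodendrocytes and choroid plexus also make, ran from 41.0 to 326 CPM with rho 0.93.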

How the data were processed

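The authors deposited 1 table of raw read counts per gene for all 20 samples, used here as counts with rat Ensembl identifiers. Per the submitters' processing notes, FastQC, TopHat2 2.0.13, Subread and edgeR were used and the build mm10, a mouse build, is named, and the rat build is not given in the sources used here. No per-sample column was left out. The genes and gene lists were chosen with earlier results of these data known, and the 13 and 7 libraries were split after the data were seen. Groups came from the labels, which pair no single pups of different groups (the title number 18 is common to all light-treated pups), and p-values measure only the spread between these samples.

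Genes were filtered with filterByExpr (15272 of 32883 kept), scaled by TMM and tested in edgeR 4.0.16 (R 4.3.3) in 1 quasi-likelihood fit of 4 group means, with two-sided tests and Benjamini-Hochberg adjustment over all genes at 0.05. Log2 CPM used a prior count of 2. Correlations used two-sided permutation tests coded in numpy 2.4.6 (ranks from scipy 1.17.1) with 100000 resamples, or exact ones for 7 libraries. The symbols Car12, Car14, Ecrg4 and Man1a were matched to the table through RefSeq synonyms. The text names all 10 genes, listed choroid plexus genes past the threshold and otherwise up to 3 per role by mean CPM (1 of these is not reported here), and the 10 most and 5 least alike genes. Of the lists for other cell types (ependyma, meninges, endothelium, red blood cell, liver, hippocampus) the rule names the 2 genes with the highest mean CPM. Further genes of these lists are named beyond the rule. Alternatives were DESeq2 1.42.0, other size factors, filters, prior counts and samples left out. The steps were tested on simulated data.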

Additional observations from a re-analysis of the deposited data

Results flagged for a closer look

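One library stood far above the other 4 of its group in both untreated groups, by Dixon's test at the 95% level on CPM. Of the 40 sets made of 1 gene and 1 group, 19 held such a library, where chance gives about 1 in 20 for normally distributed values. CPM are skewed, and on log2 CPM, tried after the data were seen, 2 of the 40 sets held such a library: untreated jj replicate 3 for Folr1 and for Aqp1. The 19 are not independent, since the 10 genes covary and all 19 come from 2 libraries.

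In untreated jj the library was replicate 3, for all 10 genes, with a gap of 0.85 to 0.99 of the group's range. In CPM, with the next highest library of the group second, the values were Ttr 9657 against 159, Kl 94.6 against 1.65, Sostdc1 64.4 against 2.06, Folr1 79.1 against 5.16 and Aqp1 126 against 6.48. The other genes had Kcnj13 32.4 against 6.01, Clic6 138 against 4.65, Slc4a5 65.4 against 2.30, Cldn2 67.5 against 3.18 and Tmem72 73.2 against 1.89. Every other untreated jj library was among the 13 lower ones.

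In untreated Nj the library was replicate 3, for 9 of the 10 genes, with a gap of 0.79 to 0.85 of the range. In CPM, again with the next highest library second, the values were Ttr 4109 against 761, Kl 50.5 against 9.14, Sostdc1 43.4 against 9.10, Folr1 44.9 against 12.8 and Aqp1 64.5 against 13.4. The remaining genes had Clic6 83.1 against 14.3, Slc4a5 25.4 against 4.92, Cldn2 49.4 against 9.55 and Tmem72 43.5 against 8.39. Kcnj13 was the exception, with 27.8 CPM in replicate 3. No library stood out in this way in the light-treated groups, where 2 of 5 Nj and 3 of 5 jj libraries were upper ones.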

How the results depend on the processing

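None of the 10 genes was called in any comparison under DESeq2's test, DESeq2 size factors, no count filter, a filter at a mean of 10 counts, the compared groups alone, untreated Nj with title number 15 only, or any 1 library left out. The share of all genes called was not counted in these fits, so the lack of calls does not set the 10 genes apart. Signs were less stable. With the untreated Nj libraries of title number 15 only (3 of 5), the log2 fold changes of jj against Nj became Folr1 -0.0335, Clic6 -0.13, Kcnj13 -0.30, Sostdc1 -0.24, Tmem72 -0.0700 and Cldn2 -0.29, and those of light in Nj became Kl -0.0424, Folr1 -0.19, Aqp1 -0.14, Clic6 -0.17 and Cldn2 -0.0938. The other 259 values from these alternatives kept their sign.

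Leaving out 1 library in turn turned the sign of 54 values and not of 546. The lowest value came without untreated jj replicate 3 and the highest without untreated Nj replicate 3 for jj against Nj: Ttr -4.17 to 2.67, Kl -3.74 to 2.40, Sostdc1 -3.87 to 1.95, Folr1 -1.76 to 1.17, Aqp1 -2.15 to 1.94, Kcnj13 -1.04 to 1.05, Clic6 -2.92 to 1.83, Slc4a5 -2.59 to 2.44, Cldn2 -2.48 to 1.85 and Tmem72 -4.03 to 2.20. For light in Nj the lowest came without light-treated Nj replicate 5 and the highest without untreated Nj replicate 3: Ttr -0.0445 to 2.40, Kl -0.20 to 2.27, Folr1 -0.48 to 1.01, Aqp1 -0.21 to 1.67, Kcnj13 -0.0934 to 1.37, Clic6 -0.30 to 1.79, Slc4a5 -0.0738 to 2.02, Cldn2 -0.27 to 2.03 and Tmem72 -0.12 to 2.27. For the interaction the lowest came without untreated Nj replicate 3 and the highest without untreated jj replicate 3: Ttr -1.38 to 5.48, Kl -1.15 to 5.01, Sostdc1 -0.85 to 4.99, Aqp1 -0.81 to 3.29, Kcnj13 -0.32 to 1.79, Clic6 -0.67 to 4.11, Slc4a5 -1.28 to 3.77, Cldn2 -0.89 to 3.46 and Tmem72 -1.02 to 5.23. For light in jj and for jj against Nj under light no sign turned. The cause was not tested.

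The median rho of the 45 pairs stayed between 0.76 and 0.84 in the lower and at 0.94 in the upper libraries with 1 library left out, and moved to at most 0.82 and 0.96 under other prior counts and scalings. With the 10 genes' mean, leaving out 1 library gave rho 0.45 to 0.74 for endothelium and -0.35 to 0 for hippocampus in the lower libraries. In the upper libraries it gave -0.77 to 0.0857 for endothelium, -0.20 to 0.54 for meninges, -0.20 to 0.60 for red blood cell and -1 to -0.77 for hippocampus genes. No paired analysis was possible because the replicate numbers in the labels pair no single pups of different groups (the title number 18 is common to all 10 light-treated pups). Depth limits Tmem72 and Sostdc1, with 1 and 3 counts in their lowest library.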

Other observations

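Lists of cell types that are not described above gave few calls. Of 8 hippocampal genes tested, Nrgn was called for light in Nj, with a log2 fold change of 0.27 (SE 0.06, edgeR adjusted p = 0.0187), where 4.00% of all genes were called, and none in the other comparisons, where 1, 3, 1 and 1 had an unadjusted p under 0.05 (untreated jj against Nj, light in jj, light-treated jj against Nj, interaction), against 6.36%, 13.0%, 6.62% and 3.41% of all genes tested. Of 7 endothelial genes 0 were called in edgeR in any comparison, against 0% to 4.00% of all genes. At most 1 had an unadjusted p under 0.05, against 3.41% to 18.1% of all genes. Cldn5 and Slc2a1, a tight junction protein and a glucose transporter of brain vessels, ran from 84.2 to 105 CPM and from 49.9 to 63.8 CPM. The 6 red blood cell genes tested are Ensembl identifiers under 5 symbols, as Hba-a2 is carried by more than 1. In edgeR 0 of these 6 were called, again with at most 1 at an unadjusted p under 0.05, against the same shares of all genes. Hbb, a beta globin gene, ran from 179 to 401 CPM. The collagen genes Col1a1 and Col3a1 of the meningeal list ran from 98.5 to 282 CPM and from 104 to 238 CPM. Cfap43 and Ak7 of the ependymal list, both genes of motile cilia, ran from 19.9 to 43.9 CPM and from 11.9 to 29.6 CPM.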
